A study of Mus musculus with 4 samples.

Results

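The Hox genes lie in 4 clusters, Hoxa, Hoxb, Hoxc and Hoxd, and were examined here as accessible chromatin maps of mouse mammary cells. Members were the 39 protein-coding genes of the GENCODE vM21 annotation of mm10 whose symbol is Hoxa, Hoxb, Hoxc or Hoxd followed by a number, out of 21938 protein-coding genes. Each cluster was taken with 10 kb on each side of its outermost genes, 572 kb in all. Of 35796 accessible regions, obtained by merging the overlapping peaks of 4 libraries, 13 lay in these clusters.

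HOX proteins are homeodomain transcription factors that set position along the body axis. Within a cluster the genes stand in the order of their paralog groups, from group 1 at the 3′ end to group 13 at the 5′ end, and are all transcribed in the same direction. In cells where a cluster is silent its CpG-rich promoters are typically held by Polycomb proteins, and binding sites of CTCF, a protein that anchors chromatin loops, are known to separate active from silent stretches of a cluster. Several Hox genes are also expressed in the mammary gland.

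The data were FAIRE-seq, which recovers DNA left free of crosslinked protein and so marks open chromatin. The cells were EpRas, a mouse mammary gland epithelial line with active H-Ras expression, and all libraries were taken at day 4. The labels gave 4 groups: control siRNA (siControl) untreated, siControl cells given TGF-β3 (1 ng/ml), and cells given TGF-β3 together with one of 2 siRNA sets that target Etv4 and Etv5, which are ETS transcription factors. Active H-Ras was thus shared by all groups, and TGF-β by both siEtv4/5 groups, which had no counterpart without TGF-β.

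Each group was 1 list of peaks with no replicates, so no difference between conditions could be tested, and all comparisons are between lists. The estimated depth was between 15300000 and 20700000 reads, the lists held 14925 to 28754 peaks, and set 2 had the highest depth and the shortest list. The lowest called peak held 10 to 12 fragments at its summit. A region that was not called may lie just under that limit, so an empty stretch is one in which no opening was detectable at this depth. FAIRE-seq holds no RNA, so the knockdown of Etv4 and Etv5 was not examined. Of 6 markers of luminal epithelium, 5 had an open promoter untreated, 4 with TGF-β, 3 in set 1 and 2 in set 2, where the share of all protein-coding genes was 36.1%, 38.1%, 34.2% and 27.3%. The promoter of the keratin gene Krt8 was open in all 4 libraries, those of Krt18 and Cldn4 in all but set 2, that of Cdh1, encoding E-cadherin, in the untreated and set 2 libraries, that of Epcam untreated only and that of Esrp1 with TGF-β only. Of 3 markers of basal epithelium, Krt14 was open in all 4 libraries and Krt5 and Trp63 in none. Of 10 markers of fibroblasts, leukocytes, endothelium and skeletal muscle, Cd68 was open in 4 libraries, Pdgfra and Pecam1 in 1 each, and Ptprc, Cd3e, Twist2, Dcn, Cdh5, Myod1 and Myog in none.

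The first feature of the data is a region shared in position by all 4 clusters. Between the starts of the group 9 and the group 8 gene, each cluster held exactly 1 region (in Hoxa, which has no group 8 gene, between Hoxa9 and Hoxa7). These 4 regions were singled out after their values were seen. The middle of the region stood 2.95 kb before the start of Hoxb8, 3.02 kb before Hoxc8, 2.21 kb before Hoxd8 and 3.13 kb before Hoxa7, whereas the length of the interval ran from 6.89 kb in Hoxd to 13.6 kb in Hoxc. When the 4 regions were read in the direction of Hox transcription and compared without gaps, the best common stretch of 20 bases was identical in all 4 at 10 positions and in at least 3 at 17 positions. It is shown here because it is what the sequences of these regions have in common, with capitals at the 10 identical positions:
Hoxa9-Hoxa7 interval, chr6:52221797-52221816 (minus strand): gAGatgGCagtgTgGCTCcA
Hoxb9-Hoxb8 interval, chr11:96278952-96278971 (plus strand): tAGatgGCatccTtGCTCcA
Hoxc9-Hoxc8 interval, chr15:102987597-102987616 (plus strand): gAGgtgGCgctgTtGCTCaA
Hoxd9-Hoxd8 interval, chr2:74702399-74702418 (plus strand): tAGagaGCgctgTtGCTCcA

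Pairs of these stretches were identical at 13 to 15 of 20 bases. Against the most frequent letter at each position, the Hoxa stretch matched at 18 bases, Hoxc at 17, and Hoxb and Hoxd at 16. A match of at least 16 bases on either strand was found within 300 bp around the middle of 69 of 35789 regions of the genome, 0.193%, and the 4 Hox regions are among the 69. No other Hox region held one, and along the whole of the 4 clusters only 1 further match of this quality was found, 210 bp from the start of Hoxc10, where no library had a region. Since the letters were derived from these 4 regions, their own matches are no evidence.

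The stretch overlapped the core of the CTCF motif, 12 letters of which were searched on both strands with at most 1 mismatch. Starting 4 bases before the stretch, the core matched with 1 mismatch in Hoxa, Hoxb and Hoxd, and with 3 in Hoxc, which did not pass. A match describes the letters only, and CTCF binding was not measured. The 3 regions that lie outside any annotated exon are shown in full from GRCm38.p6 (mm10), 5′ to 3′ in the direction of Hox transcription, with the 20 bases in capitals; the Hoxa stretch lies in the 5′ UTR of a longer annotated Hoxa7 transcript.
Hoxb9-Hoxb8 region, chr11:96278837-96279076 (plus strand): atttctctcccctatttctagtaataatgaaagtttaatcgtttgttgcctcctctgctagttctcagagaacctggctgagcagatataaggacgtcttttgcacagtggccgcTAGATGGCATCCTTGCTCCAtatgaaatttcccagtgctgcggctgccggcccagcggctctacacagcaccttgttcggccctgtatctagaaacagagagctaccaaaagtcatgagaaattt
Hoxc9-Hoxc8 region, chr15:102987477-102987697 (plus strand): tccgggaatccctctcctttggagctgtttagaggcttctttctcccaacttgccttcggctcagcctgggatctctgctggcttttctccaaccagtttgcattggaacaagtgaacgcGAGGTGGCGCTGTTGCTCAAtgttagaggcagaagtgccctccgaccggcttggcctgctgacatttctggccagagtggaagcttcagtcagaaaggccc
Hoxd9-Hoxd8 region, chr2:74702309-74702504 (plus strand): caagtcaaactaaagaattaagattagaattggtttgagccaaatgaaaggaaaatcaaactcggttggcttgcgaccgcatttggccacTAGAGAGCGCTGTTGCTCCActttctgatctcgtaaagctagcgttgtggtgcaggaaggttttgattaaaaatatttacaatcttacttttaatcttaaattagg

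The 4 regions differed in the libraries that called them. The Hoxc region, in an intron of a long Hoxc5 transcript, was called in all 4, with a fold enrichment over local background of 11.4 untreated, 9.73 with TGF-β, 8.49 in set 1 and 12.2 in set 2. In set 2 this fold exceeded that of 99.5% of the library's peaks, although the region rested on 28 fragments at its summit. The Hoxb region, intergenic, was the strongest Hox region of all, with a fold of 14.6 with TGF-β on 37 fragments, above 98.7% of the peaks of that library. It reached 11.4 untreated and 8.63 with set 1 and was not called with set 2. The Hoxd region, intergenic but 1264 bp from the TSS of Gm44463, was called in both siControl libraries and in neither siEtv4/5 library. Its fold was 7.33 untreated and 11.6 with TGF-β. The Hoxa region was called at 10.3 untreated and 7.27 with set 2, and in neither of the other two. No library called all 4 regions except the untreated one.

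**Figure D1:**
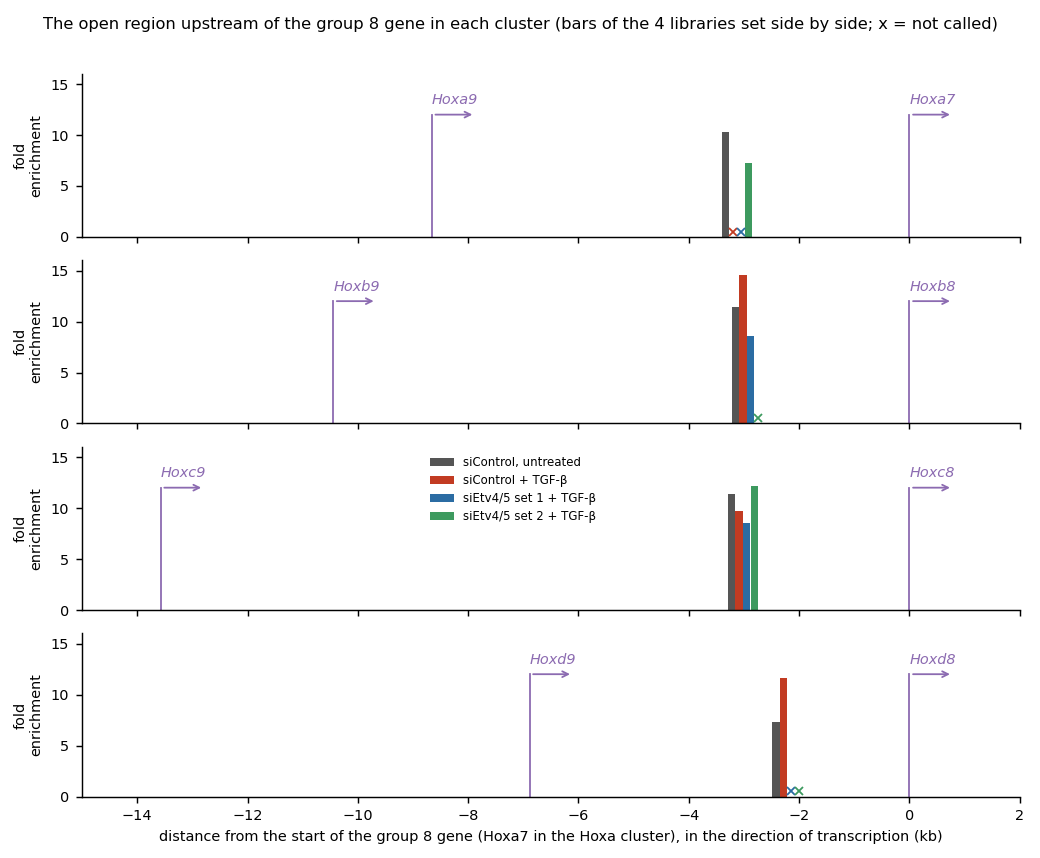
The interval between the group 9 and group 8 genes in each cluster (Hoxa7 in Hoxa), drawn in kb from the start of the downstream gene, with bars for the authors' fold enrichment in each library set side by side at the region and crosses where no peak was called. The region stands between 2.21 and 3.13 kb before the downstream gene in all 4 clusters, and the Hoxc region is the one called in every library.

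At the promoters the Hox genes were mostly closed. A gene was counted where the middle of a region lay within 2 kb of one of its transcription start sites (TSS) in the basic annotation. By this count 1 Hox gene was open in the untreated library and 2, Hoxa5 among them, in each of the 3 libraries with TGF-β. The share was 2.56% of 39 genes untreated (95% Wilson interval 0.454 to 13.2%, counting error only) and 5.13% in each of the other libraries (1.42 to 16.9%). Among all protein-coding genes the share was 36.1% untreated, 38.1% with TGF-β, 34.2% in set 1 and 27.3% in set 2, each above the upper bound of the Hox interval.

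Most Hox promoters are rich in CpG dinucleotides, the class of promoter that was open most often in these cells. A CpG-rich promoter was found for 26 of the 39 Hox genes (10 of 11 in Hoxa, 5 of 10 in Hoxb, 5 of 9 in Hoxc, 6 of 9 in Hoxd), and 2 of these 26 were open in any library. Of 10479 genes with CpG-rich promoters, 58.5% were open untreated, 61.3% with TGF-β, 55.5% in set 1 and 45.0% in set 2. Of 101 other homeobox and Pax genes, a list drawn up after the Hox values were seen, 9.90% were open untreated (5.47 to 17.3%), 10.9% with TGF-β, 9.90% in set 1 and 4.95% in set 2. The intervals of these 101 genes overlap those of the Hox genes in each library. The list takes chosen families and leaves out other homeobox genes, among them the Pbx, Meis and Pknox genes. Of those 9 genes, 4 were open untreated, 5 with TGF-β, 5 in set 1 and 3 in set 2. In the untreated library the shares of the Hox genes and of the 101 genes, taken whole or CpG-rich only, lay under the 15.6% of genes with CpG-poor promoters. Only the interval of all 39 Hox genes lay wholly under that share, and the other intervals included it.

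**Figure D2:**
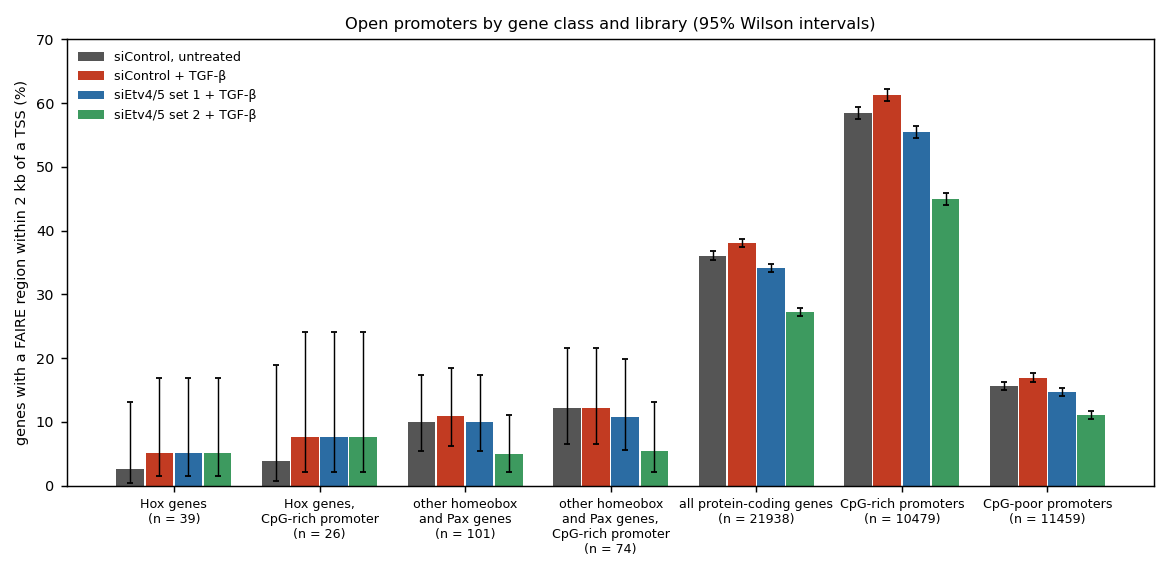
Share of genes (%) with a FAIRE region within 2 kb of a TSS, by gene class and library; bars are shares and lines their 95% Wilson intervals. The Hox bars stay at or below 7.69%, also for CpG-rich Hox promoters, while CpG-rich promoters of all genes reach 61.3%.

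The promoter of Hoxa5, a gene from the middle of its cluster, was called with TGF-β, set 1 and set 2 and not untreated (chr6:52204415-52204653, middle 53 bp downstream of the TSS). The fold enrichment was 8.67, 7.32 and 7.51, on 20, 18 and 22 fragments. With TGF-β this was 1.23 fragments per 1000000 reads (FPM, exact 95% Poisson interval 0.751 to 1.9). The lowest called peak of the whole untreated library stood at 0.654, but a higher local background raises the limit. At the nearby 3′ end of Hoxa5 the untreated library had an estimated 117 reads in 10 kb, against a genome mean of 81.7. In the untreated library a weaker region was called instead at the 3′ end of the gene, 2.87 kb downstream of the TSS (chr6:52201648-52201782), with a fold of 6.01 on 14 fragments. That region reached into the 3′ UTR by 29 bp and was called in no other library. The short stretch of the Hoxa5 region upstream of the gene, outside its UTR, is shown as the sequence of this promoter.
Hoxa5 upstream sequence, chr6:52204588-52204653 (minus strand): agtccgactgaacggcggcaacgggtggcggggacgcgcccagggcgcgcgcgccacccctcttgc

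Hoxa7 depends on the transcripts considered. The region of the Hoxa9-Hoxa7 interval lies 3.13 kb from the basic TSS of Hoxa7 but 11 bp from the start of a longer transcript. With the starts of all annotated transcripts, an alternative added after seeing the data, Hoxa7 was thus counted as open untreated and with set 2, and the count went from 1 to 2 genes untreated and from 2 to 3 with set 2.

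The other regions lay more than 2 kb from the start of any Hox gene. In the long gap without a Hox gene between Hoxb13 and Hoxb9 the untreated library alone called 3 regions, 36.4 kb, 31.0 kb and 10.9 kb upstream of Hoxb9, with a fold of 9.64, 8.31 and 7.02 on 19, 16 and 15 fragments. The third was at the noncoding gene Gm53, 1093 bp from its TSS and so within the 2 kb limit used for promoters. A region in the body of Hoxb6, 2.21 kb downstream of its TSS, was called with TGF-β at 8.65 and with set 2 at 8.46. A region 9.84 kb upstream of Hoxa13, at the very edge of the window taken, was called with TGF-β only, at 7.42 on 15 fragments.

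Hoxc10, a posterior gene, was the case of a region within coding sequence (chr15:102970876-102971043). It was called untreated at 11.2 on 22 fragments and with set 2 at 8.82 on 20 fragments. The sequence is shown since it encodes part of the homeodomain, which is similar among all Hox genes. The longest stretch of it that recurs exactly elsewhere in the 4 clusters was 23 bases, in Hoxb. Matches with mismatches or outside the clusters were not searched, so whether reads of other homeobox genes mapped there was not tested.
Hoxc10 coding exon, chr15:102970876-102971043 (plus strand): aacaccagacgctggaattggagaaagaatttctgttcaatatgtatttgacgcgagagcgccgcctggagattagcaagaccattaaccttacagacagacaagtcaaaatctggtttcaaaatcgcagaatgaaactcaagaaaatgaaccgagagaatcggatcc

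**Figure D3:**
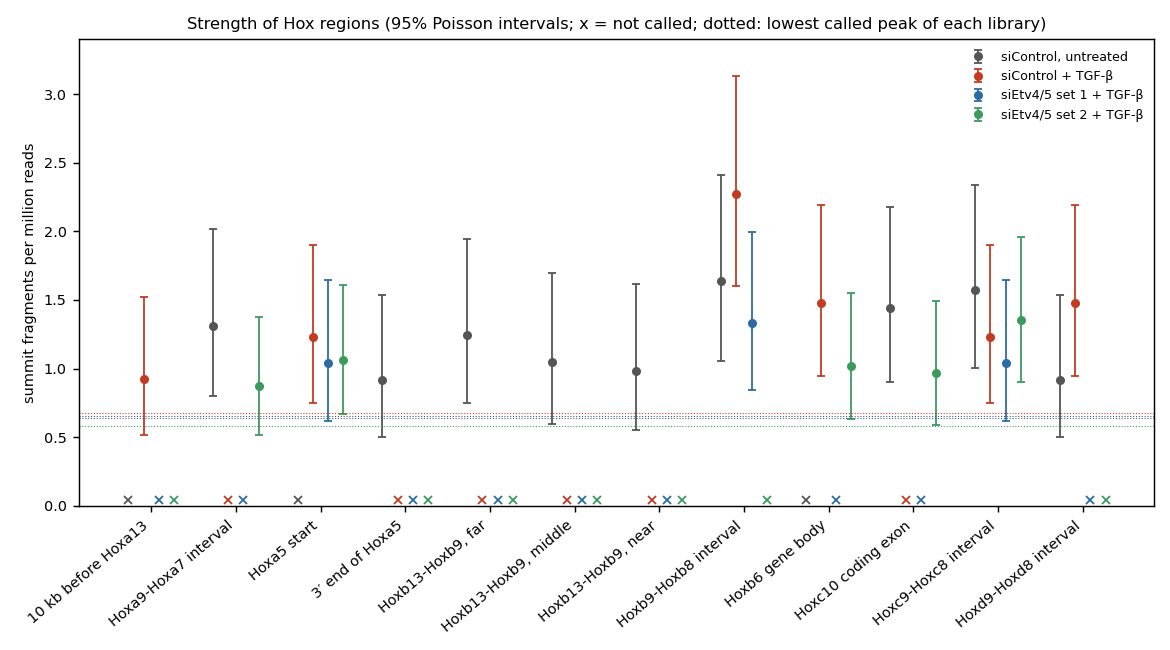
Summit fragments per 1000000 reads at Hox regions, one point per library with its exact 95% Poisson interval; crosses mark libraries without a call and dotted lines the lowest called peak of each library. The figure shows 12 of the 13 regions. At the Hoxb9-Hoxb8 region the point with TGF-β, 2.27, is the highest of those shown, and its interval, 1.60 to 3.13, overlaps those of the untreated library and set 1.

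Long stretches of each cluster, taken with the 10 kb on each side, held no region in any library. The genome held 1.31 merged regions per 100 kb. Empty stretches elsewhere were not measured, so whether these lengths are particular to the clusters was not tested. In Hoxd the longest was 72.6 kb, 62.2% of the cluster, with Hoxd8, Hoxd4, Hoxd3 and Hoxd1 inside, and beyond Hoxd1 the next region came 198 kb outside the window. In Hoxb it was 83.5 kb, 43.0% of the cluster, with Hoxb5, Hoxb4, Hoxb3, Hoxb2 and Hoxb1 inside. Hoxc held a pair of similar length, 59.8 kb with Hoxc13, Hoxc12 and Hoxc11, and 59.2 kb with Hoxc8, Hoxc6 and Hoxc4. In Hoxa, 48.7 kb were empty over Hoxa13, Hoxa11, Hoxa10 and Hoxa9, and 43.2 kb downstream of Hoxa5, with Hoxa4 and Hoxa2 inside. Hoxd as a whole was without a region in both siEtv4/5 libraries.

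By paralog group, 7 of the 13 regions had a gene of groups 4 to 8 as their nearest Hox TSS, and 5 a gene of groups 9 to 13. Groups 9 to 13, with 16 genes, drew 4 regions untreated, 1 with TGF-β, 0 in set 1 and 1 in set 2. Groups 4 to 8, with 15 genes, drew 5, 5, 3 and 4. The untreated regions of groups 9 to 13 include the 3 of the gap between Hoxb13 and Hoxb9, 10.9 to 36.4 kb from Hoxb9. The nearest TSS of any gene to those was that of Gm11539 or Gm53, so their place in groups 9 to 13 rests on the assignment alone. Of the 39 genes, 10 were the nearest Hox gene of some region and 29 of none. The median distance from a Hox TSS to the nearest region of any library was 9.96 kb, and the farthest gene was Hoxd1 at 60.6 kb. For all protein-coding genes the median was 6.02 kb, and for the other homeobox and Pax genes it was 22.2 kb. Among genes with CpG-rich promoters it was 8.12 kb for the Hox genes and 0.129 kb for all, whereas it was 23.9 kb for all genes with CpG-poor promoters.

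**Figure D4:**
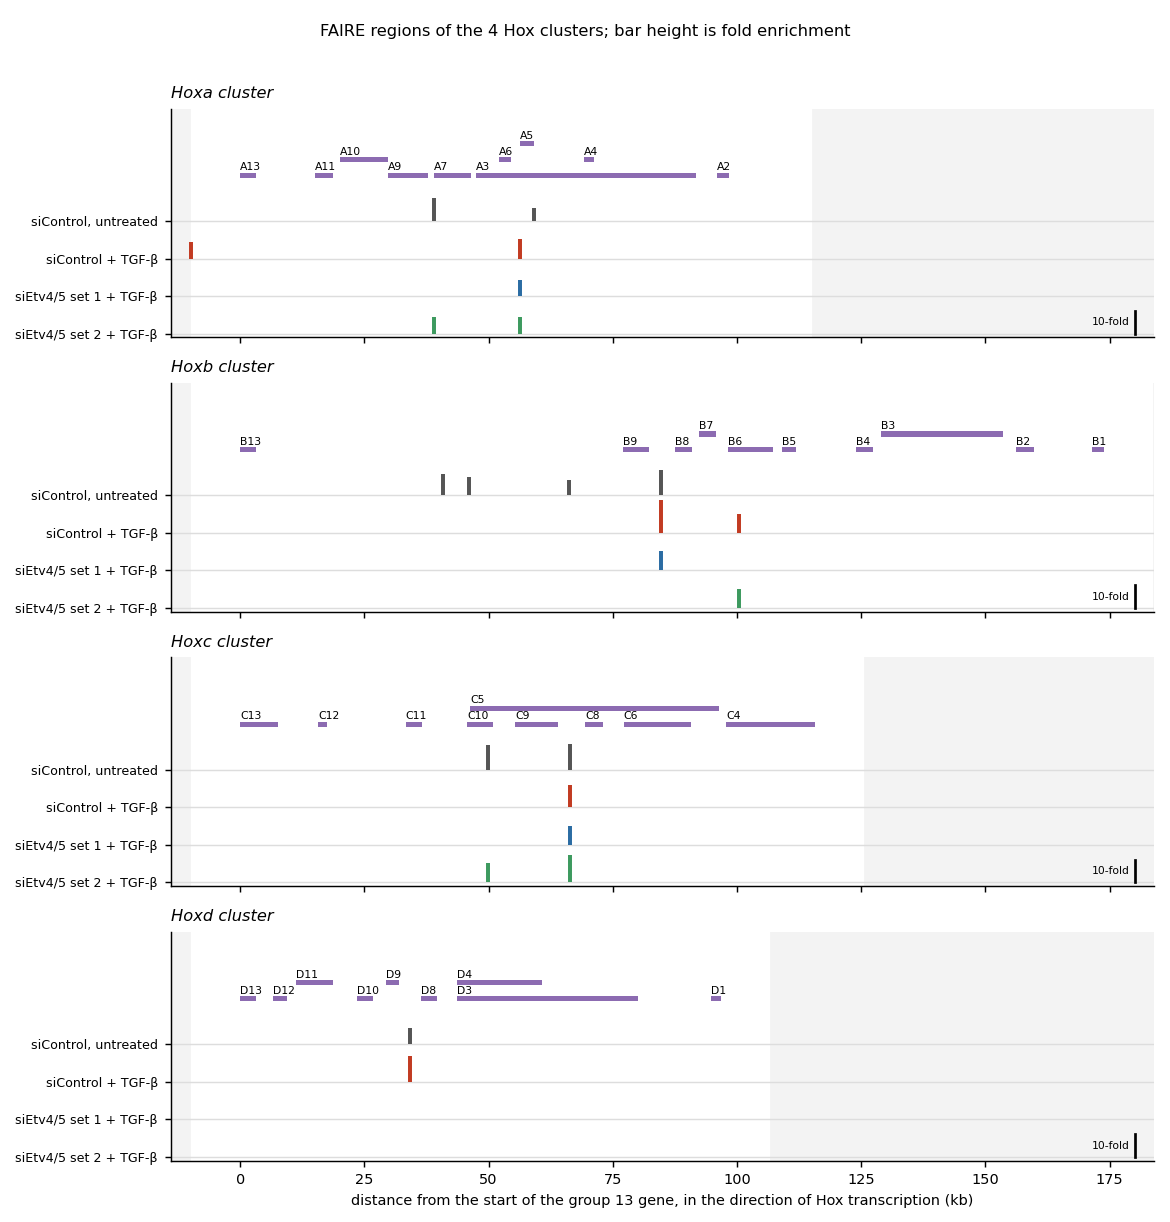
Map of the 4 clusters in kb from the start of the group 13 gene, in the direction of transcription; purple bars are genes, vertical bars are regions with height equal to the fold enrichment (scale bar, 10-fold; 12 of the 13 regions and 38 of the 39 genes are drawn), and grey marks what lies more than 10 kb outside the genes. Hoxd carries 1 region in the siControl libraries and none in the siEtv4/5 libraries, and Hoxb carries none from Hoxb5 to Hoxb1.

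Few promoters were open, but set against the genome the clusters were not poor in regions for their length. They held 1.75 regions per 100 kb untreated (exact 95% Poisson interval 0.839 to 3.22), 1.22 with TGF-β (0.492 to 2.52), 0.700 in set 1 (0.191 to 1.79) and 1.05 in set 2 (0.385 to 2.28). The genome as a whole held 0.816, 1.05, 0.826 and 0.547. The genome's value lay inside the interval of the clusters in 3 libraries and just below it in the untreated one. The clusters also held 22.9 CpG per kb against 8.26 in the genome, and 18.5% repeat sequence against 36.4%, and the part of these properties in the density was not tested. The 500 kb on each side of the clusters held 1.88, 2.48, 2.00 and 1.32 regions per 100 kb, in set 1 above the interval of the clusters. The keratin gene clusters, a pair of clusters of epithelial genes, held 2.1, 2.78, 1.82 and 0.851, above that interval with TGF-β and in set 1. Between clusters the density ran from 3.99 merged regions per 100 kb in Hoxa, where the 500 kb on each side held 1.1, to 0.856 in Hoxd, where they held 1. The genome held 1.31 merged regions per 100 kb, so Hoxd alone lay below it. Hoxb, with 2.58, and Hoxc, with 1.47, stood in denser surroundings of 4.9 and 5.3.

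**Figure D5:**
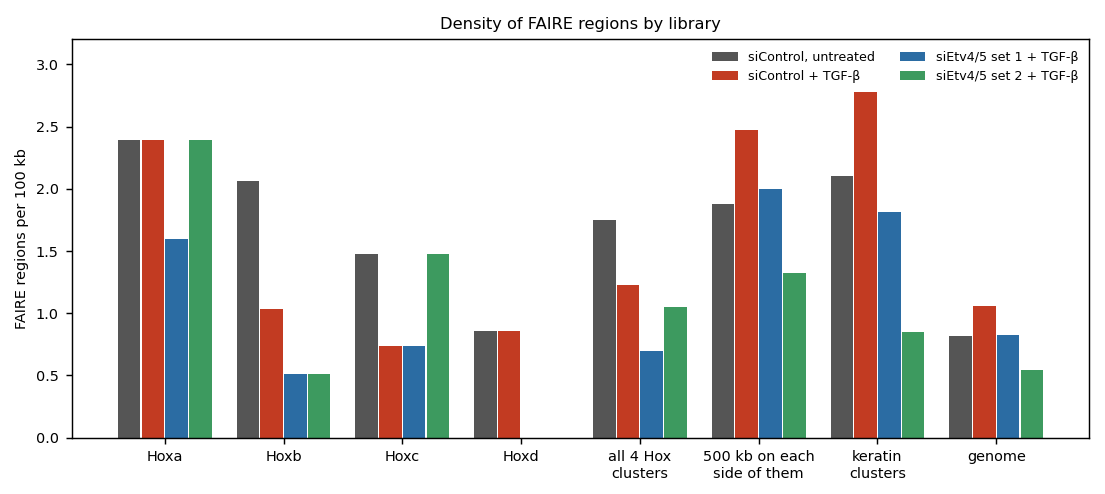
FAIRE regions per 100 kb in each Hox cluster, in all 4 together, in the 500 kb on each side of them, in the keratin clusters and in the genome, by library. The Hox clusters go from 1.75 untreated to 1.22 with TGF-β, while the genome goes from 0.816 to 1.05 and the keratin clusters from 2.1 to 2.78. With lists of equal length, which are not plotted, 6 Hox regions are left untreated and 5 with TGF-β.

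The effect of TGF-β was read from the siControl libraries, with and without it. The number of Hox regions was 10 untreated and 7 with TGF-β, against 22247 and 28754 regions in the genome. With lists of equal length the numbers of Hox regions were 6 and 5, with 3 in set 1 and 6 in set 2. Of the 10 untreated regions, 6 had no overlapping peak with TGF-β, 60.0% (31.3 to 83.2%), where 18.4% of all untreated regions had none. These were the 3 regions upstream of Hoxb9, the Hoxc10 exon, the Hoxa9-Hoxa7 interval and the 3′ end of Hoxa5. Of the 7 regions with TGF-β, 3 had no untreated peak, 42.9% (15.8 to 75.0%), where 37% of all had none. These were the Hoxa5 promoter, the Hoxb6 body and the region upstream of Hoxa13. Of the regions lost, the fold untreated ran from 6.01 to 11.2, with 14 to 22 fragments, where the median of all untreated peaks was 21.

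At the 4 Hox regions called in both siControl libraries the difference in fold enrichment went both ways. The log2 ratio of TGF-β over untreated was 0.66 at the Hoxd9-Hoxd8 region, 0.35 at the Hoxb9-Hoxb8 region and −0.23 at the Hoxc9-Hoxc8 region. The median of the 4 was 0.43, with 0.12 at all 18082 shared regions, but with lists of equal length the Hox median was 0.062. At each of the 4 the Poisson intervals of the 2 libraries overlapped.

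The siEtv4/5 sets were each compared with siControl with TGF-β. Of the 7 regions of the latter, 3 were absent with set 1, 42.9% (15.8 to 75.0%) against 33.6% of all regions, and 3 were absent with set 2, against 53.6% of all. The Hoxd9-Hoxd8 region and the region upstream of Hoxa13 were absent with both sets, the Hoxb6 region with set 1 alone and the Hoxb9-Hoxb8 region with set 2 alone. The Hoxd pattern, a call in both siControl libraries only, was held by 1 of 13 Hox regions, 7.69%, and by 7.05% of all regions. A call in siControl with TGF-β only, as upstream of Hoxa13, was held by 7.69% of Hox regions and by 16.1% of all. All 4 set 1 regions were also called in siControl with TGF-β, where 15.2% of all set 1 regions were not. Of 6 set 2 regions, 2 were not called in siControl with TGF-β, against 10.3% of all, namely the Hoxa9-Hoxa7 interval and the Hoxc10 exon, both called untreated. The pattern of a call untreated and with set 2 only was held by 2 of 13 Hox regions and by 290 of 35796 regions of the genome, 0.810%. The comparisons share the library of siControl with TGF-β, so they are not independent.

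At regions called in both, the log2 ratio of set 1 over siControl with TGF-β was below 0 at all 4 Hox regions. Of all 19023 shared regions, 28.5% had a ratio above 0. The ratio was −0.24 at Hoxa5 and −0.76 at the Hoxb9-Hoxb8 region, with a Hox median of −0.22 against −0.16 at all shared regions. At each of the 4 the Poisson intervals of both libraries overlapped. With set 2 the ratio was 0.32 at the Hoxc9-Hoxc8 region, −0.033 in the Hoxb6 body and −0.21 at Hoxa5. The median of 4 regions was −0.12, against −0.38 at all shared regions.

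Over all libraries, 2 of 13 Hox regions were called in each of the 4, 15% (4.33 to 42.2%), where 29.6% of the 35796 regions of the genome were. The Hoxc9-Hoxc8 region was one of them. Another 5 were called in 1 library, 38.5% (17.7 to 64.5%), where 31.5% of all regions were. Of the 13, 4 were called untreated only, 30.8%, against 7.72% of all regions. The median fold of the Hox peaks was 8.97, 9.08, 8.56 and 7.99 in the order untreated, TGF-β, set 1 and set 2, against 8.19, 8.44, 7.91 and 7.15 for all peaks.

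Motifs were searched in 300 bp around the middle of each region, on both strands. A region was counted as holding a motif where this window did, so a match can lie outside the called region. The AP1 motif TGANTCA was held by 2 of 13 Hox regions, 15% (4.33 to 42.2%), against 40.9% of all regions, namely the 3′ end of Hoxa5 and the Gm53 region, both called untreated only. The ETS motif CCGGAA was held by 1, the Hoxc9-Hoxc8 region, 7.69% (1.37 to 33.3%), against 12.3% of all. This ETS match ran over the edge of the called region, so the sequence shown above holds only part of it. The AP1 match at the 3′ end of Hoxa5 also ran over the edge of its region. The core CTCF motif was held by 5, 38.5% (17.7 to 64.5%), against 17.6% of all. These were the intervals Hoxa9-Hoxa7, Hoxb9-Hoxb8 and Hoxd9-Hoxd8, the Hoxa5 promoter and the region upstream of Hoxa13. At the Hoxa5 promoter the match lay in the 300 bp searched but outside the called region. The share of all regions lay inside the interval of the Hox regions for AP1 and ETS and just under it for CTCF, but for AP1 and CTCF this depended on the window and the regions taken. With 500 bp the AP1 share of all regions, 43.6%, lay above the upper bound of the Hox regions, 42.2%, and the CTCF share, 19.0%, inside their interval. At regions farther than 2 kb from a TSS, AP1 was held by 1 of 9 Hox regions (1.99 to 43.5%) against 52.6% of all such regions, and CTCF by 3 of 9 (12.1 to 64.6%) against 20.8%.

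The genes around and upstream of the clusters were read at their promoters in the same way. Of all protein-coding genes, 23.6% were open in all 4 libraries and 57.4% in none. Of 14 genes flanking the clusters, 4 were open in all libraries, Skap2 and Lnpk in 3 and Snx10 in set 2 only, and 7 in none. Of a chosen list of 16 noncoding genes of the clusters, 15 were open in none. The list left out Gm53 and Gm44463, whose TSS each lay within 2 kb of a Hox region. Of 9 genes of HOX cofactors, the TALE homeodomain proteins that bind DNA with HOX proteins, 2 were open in all libraries. Meis1 was open in the 3 TGF-β-treated libraries and not untreated, and Pbx3 and Meis2 in all but set 2.

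Of 15 Polycomb genes, whose proteins keep Hox genes silent, 7 were open in all libraries and 5 in none. Ezh2, the H3K27 methyltransferase, and Jarid2 were open in all but set 2, and Rnf2, encoding a ubiquitin ligase of the complex, in the siControl libraries only. Of 10 Trithorax genes, whose proteins keep Hox genes active, 4 were open in all and 3 in none, with Wdr5 open in all but set 2, Rbbp5 with TGF-β and set 1, and Kmt2c untreated only. Of 10 upstream regulators of the clusters, Rarg, a retinoic acid receptor, was open in all libraries and 7 were open in none. Its relative Rara was open in all but set 2, and Cyp26b1, which degrades retinoic acid, with TGF-β and set 2.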

How the data were processed

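FAIRE-seq libraries of EpRas cells, 1 per group as given by the labels, were sequenced by the authors on an Ion Proton. Reads were trimmed, mapped to mm10 with bowtie2 and peaks called with MACS2 (2.1.0 in the submitters' processing notes). The study describes replicates, which may have been combined into each list. The deposited lists hold, as the authors' values, a fold enrichment (a ratio to the local background), a −log10 p-value, a −log10 q-value and a score derived from the latter. The Hox genes, the lists and the alternatives were chosen with earlier results of these data known.

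Summit fragments and local background were solved from the deposited fold and p-value, taken as (fragments + 1)/(background + 1) and a Poisson tail. They fitted within 0.001 in 100% of peaks, after the code had been tested on simulated data. Depth was estimated from the background floor with an effective genome of 1.87 Gb. Peaks overlapping by at least 1 bp were merged into regions. A CpG-rich promoter held a 500 bp window with at least 55% GC and an observed over expected CpG ratio of at least 0.75 between −900 and 400 bp of a TSS. Sequences came from RefSeq GRCm38.p6. With 1 list per group no test was run, and Wilson and exact Poisson intervals (95%) cover counting error only. Named were Hox genes with an open promoter, Hox regions (1 gene and its region are not reported here), genes of the lists around the Hox genes open in 1 to 3 libraries, and cell type markers; the regions between groups 9 and 8, the homeobox and Pax list, the naming of all markers and that of Rarg were chosen after the values were seen. Python with pandas, scipy and pysam was used.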

Additional observations from a re-analysis of the deposited data

How the results depend on the processing

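Each result was recomputed under alternatives, 88 values in all. A count was taken as unmoved within 1.5 times, a share within its interval, and a length or median only if equal to 2 decimals. By this 71 values were unmoved and 17 were not, 11 of them lengths or medians. A q-value limit 100 times stricter moved none of its 22 values, since every Hox peak passed it. With the 14925 most significant peaks of each library, the Hox regions called untreated fell from 10 to 6, the genes with an open promoter from 1 to 0 untreated and from 2 to 1 with TGF-β and with set 1, and the regions called in all 4 libraries from 2 to 1. The longest empty stretch of Hoxa became 48.9 kb, and the median log2 ratios became 0.062 for TGF-β over untreated, −0.20 for set 1 and −0.033 for set 2. The regions lost with TGF-β were then 4 of 6. The matching share of all regions is not given for lists of equal length, and the 18.4% above holds for the full lists only. In fragments per 1000000 reads the medians were 0.53, −0.29 and −0.37. Without the 10 kb on each side, the longest empty stretches were 43.2 kb in Hoxa, 73.5 kb in Hoxb, 49.8 kb in Hoxc and 62.6 kb in Hoxd. With the starts of all annotated transcripts, added after seeing the data, 2 genes had an open promoter untreated. Overlap by 0.5 of the shorter peak, promoters within 1 kb and summits moved nothing beyond these limits. Nor did 500 bp windows and regions farther than 2 kb from a TSS for the Hox motif shares, but the shares of all regions then changed sides of the Hox interval for AP1 and CTCF. No paired analysis was possible because each group has 1 peak list and no result comes from a test. Depth limits every absence: Hox peaks held 14 to 37 fragments where 10 to 12 sufficed for the lowest called peak of each list. A higher local background raises that limit.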
